A study of Rattus norvegicus with 154 samples.

Results

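Genes of sterol synthesis were examined in rat lung after exposure to sulfur mustard, a chemical warfare agent that alkylates DNA and proteins. The group held 8 target genes of the transcription factor SREBP2, which were Hmgcs1, Idi1, Fdps, Fdft1, Sqle, Lss, Dhcr7 and Insig1, and its members were all probe sets that the array's gene table assigns to 1 of these symbols. Of the 8 genes, 7 had a probe set under their symbol and 1, Hmgcs1, the synthase that makes HMG-CoA, had none, so no value is given for it. The 7 measured genes had 10 probe sets of the 15866 on the array, and 9 of the 10 passed the filter on low values, which left 11106 probe sets of 8042 genes for the tests. Idi1, Fdft1 and Lss had 2 probe sets each, and each gene is represented by its brighter one. The second Lss probe set lay below the filter, with an intensity of 3.0 to 15.2 in all animals except the saline animal 2 at 6 h (53.4), and was not tested.

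Total lung RNA came from 77 rats, each measured on 2 Affymetrix chips (A and B), which made 154 arrays. The rats had received sulfur mustard at 1, 3 or 6 mg with isopropyl alcohol as the vehicle, isopropyl alcohol alone or saline alone (both 0 mg), and times were 30 min and 1, 3, 6 and 24 h. There were 25 groups, of which 23 had 3 animals and the 6 mg groups of the first 2 times had 4. The labels gave doses in mg without body weight, and strain, sex, age and route were not given in the sources used here. Values are linear intensities per probe set, averaged over the chips of an animal, and a level can be set against another only for the same probe set. Defining lung markers were present, with Sftpc, the surfactant protein C gene of alveolar type II cells, at 4004.5 to 17054.8 and Ager, a marker of type I cells, at 1837.4 to 3954.9 over all animals. The median intensity of an array lay between 67.7 and 100.1, and the lowest medians (67.7 and 68.6) belonged to the chips of 6 mg animal 3 at 3 h. Animals are numbered within their group only, and these numbers pair no animals.

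Cells make cholesterol from acetyl-CoA through mevalonate, isoprenoid units, squalene and lanosterol, and the genes of most steps are switched on together by SREBP2. This factor sits in the endoplasmic reticulum membrane with its escort Scap. When membrane sterols are plentiful, Insig proteins hold the pair there; when sterols fall, the pair moves to the Golgi, a pair of proteases releases the active factor, and it enters the nucleus. Insig1 is itself a target gene, which closes a feedback loop. In the lung, cholesterol is a component of the surfactant that alveolar type II cells secrete.

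Promoter windows of 6 members were held by the RefSeq promoter table of the rat build GRCr8, each running from 250 bases before to 50 bases after the gene's start. The windows of Insig1 (chr4:8057720-8058019, minus strand), Idi1 (chr17:66547475-66547774, minus strand) and Fdps (chr2:176804767-176805066, minus strand) are shown because these were the members that rose, and that of Dhcr7 (chr1:208444184-208444483, plus strand) for comparison. They are written 5′ to 3′ along the gene, and capitals mark matches on either strand to the CCAAT box (CCAAT), the E-box (CACGTG) and the GC box (GGGCGG).
Insig1: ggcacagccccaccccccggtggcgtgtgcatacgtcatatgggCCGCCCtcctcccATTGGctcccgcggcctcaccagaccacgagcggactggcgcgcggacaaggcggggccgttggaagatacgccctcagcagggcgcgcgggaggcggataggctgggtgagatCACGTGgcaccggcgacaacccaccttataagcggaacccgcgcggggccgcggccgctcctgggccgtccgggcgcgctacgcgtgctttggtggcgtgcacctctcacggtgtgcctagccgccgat
Idi1: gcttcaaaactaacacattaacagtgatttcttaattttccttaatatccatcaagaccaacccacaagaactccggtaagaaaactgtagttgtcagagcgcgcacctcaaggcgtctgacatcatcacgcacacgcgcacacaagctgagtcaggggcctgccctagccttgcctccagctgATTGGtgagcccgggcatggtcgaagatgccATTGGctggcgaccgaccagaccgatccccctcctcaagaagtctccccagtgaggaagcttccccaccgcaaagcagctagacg
Fdps: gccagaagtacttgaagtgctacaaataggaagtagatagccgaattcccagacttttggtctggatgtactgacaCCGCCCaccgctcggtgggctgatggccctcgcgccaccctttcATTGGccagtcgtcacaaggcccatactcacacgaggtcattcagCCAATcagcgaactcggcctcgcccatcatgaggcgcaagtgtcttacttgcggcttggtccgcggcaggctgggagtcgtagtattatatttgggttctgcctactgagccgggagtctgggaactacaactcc
Dhcr7: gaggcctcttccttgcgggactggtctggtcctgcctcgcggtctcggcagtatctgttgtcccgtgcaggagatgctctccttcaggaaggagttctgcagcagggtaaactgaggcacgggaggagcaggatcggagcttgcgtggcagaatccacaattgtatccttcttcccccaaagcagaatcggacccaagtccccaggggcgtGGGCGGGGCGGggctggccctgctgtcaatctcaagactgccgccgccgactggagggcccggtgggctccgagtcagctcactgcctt
A CCAAT box was found in 5 of the 6 member windows, against 37.5% of all 33469 windows in the table. Idi1 had 2 of them at -66 to -62 and -35 to -31 from the start site, Fdps 2 at -130 to -126 and -85 to -81, and Insig1 1 at -193 to -189, while Dhcr7 had none. Lss, which was not called at 3 h, had 1 at -82 to -78, and Hmgcs1 had 2 at -188 to -184 and -133 to -129. The GC box was found in 5 of the 6 windows, Idi1 being the exception, against 33.1% of all windows. In Dhcr7 its 2 matches, at -39 to -34 and -34 to -29, share a base. An E-box was found in Insig1 alone, at -79 to -74, against 6.42% of all windows. The sterol regulatory element searched for (TCACNCCAC, N standing for any base) occurred in 0 of the 6 windows and in 1.12% of all windows, which says only that these letters are not within these windows. A match is a match of letters and not a measured binding site.

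At 3 h after 6 mg, Idi1, Insig1 and Fdps had higher levels than in the animals given isopropyl alcohol alone, by 2.67-fold, 2.29-fold and 1.69-fold. These were 3 of the 7 measured member genes, and 3.84% of all tested probe sets rose in that comparison, against 9.1% that fell and 12.9% called in either direction (limma, adjusted p under 0.05). The 4 others, Sqle, Dhcr7, Lss and Fdft1, were all above 0 on the log2 scale and did not pass. The median log2 fold change over the 7 genes was 0.64, where that of all tested probe sets was -0.05. Because whole lung was measured, a change in the number of cells of a type and a change in RNA per cell cannot be told apart.

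Idi1 encodes isopentenyl-diphosphate isomerase, which interconverts the building blocks of all isoprenoids. Its intensity was 218.8, 224.6 and 446.4 in the 3 animals given 6 mg at 3 h, against 110.5, 89.7 and 102.3 with isopropyl alcohol alone and 70.2, 86.3 and 71.9 with saline. All 3 treated animals lay above the highest of the 30 control animals of any time (176.8). The log2 fold change against isopropyl alcohol was 1.42 ± 0.26 (SE, n = 3 and 3, limma adjusted p = 0.000115). The second Idi1 probe set gave 80.0, 64.8 and 137.4 against 59.7, 68.4 and 33.8, so its groups overlapped. Its log2 fold change was 0.70 ± 0.22 (SE, limma adjusted p = 0.0262), under that of the first Idi1 probe set.

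Insig1 encodes the sterol-sensing anchor that retains SREBP2 in the endoplasmic reticulum. Its intensity was 454.4, 559.0 and 898.2 with 6 mg at 3 h, against 232.6, 267.4 and 292.6 with isopropyl alcohol and 219.0, 297.0 and 258.3 with saline. The groups of that time did not overlap, and 2 of the 3 treated animals lay above every control animal of any time, of which the highest stood at 551.3. Against isopropyl alcohol the log2 fold change was 1.20 ± 0.19 (SE, n = 3 and 3, limma adjusted p = 7.59e-06).

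Fdps encodes farnesyl diphosphate synthase, whose product feeds both sterols and the lipid anchors of proteins. Its intensity was 371.9, 379.0 and 583.1 with 6 mg at 3 h, against 262.8, 197.8 and 313.9 with isopropyl alcohol and 277.2, 232.4 and 296.0 with saline. The groups of that time did not overlap, yet only animal 3 exceeded the highest control of any time (419.4). On the log2 scale the difference was 0.76 ± 0.19 (SE, n = 3 and 3, limma adjusted p = 0.00321).

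In all 3 genes the highest treated animal was animal 3, the one with the lowest array medians. Without it the log2 fold change was 1.09 for Idi1 (adjusted p = 0.0186), 0.92 for Insig1 (adjusted p = 0.00244) and 0.55 for Fdps (adjusted p = 0.15, limma). The second Idi1 probe set stood at 0.42 without it (adjusted p = 0.491). Fdps also missed the threshold without isopropyl alcohol animal 2 (0.59, adjusted p = 0.0662), and the second Idi1 probe set without isopropyl alcohol animal 3 (0.44, adjusted p = 0.232). Idi1 and Insig1 passed with each of the 6 animals left out in turn, and the calls of Fdps and of the second Idi1 probe set were each lost without either of 2 animals. The second Idi1 probe set also missed the threshold with chip A alone (0.59, adjusted p = 0.172), array weights (0.46, adjusted p = 0.287) and the groups of that time alone (0.70, adjusted p = 0.101). Fdps missed it with array weights (0.62, adjusted p = 0.0543) and with the groups of that time alone (0.76, adjusted p = 0.0583).

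**Figure D1:**
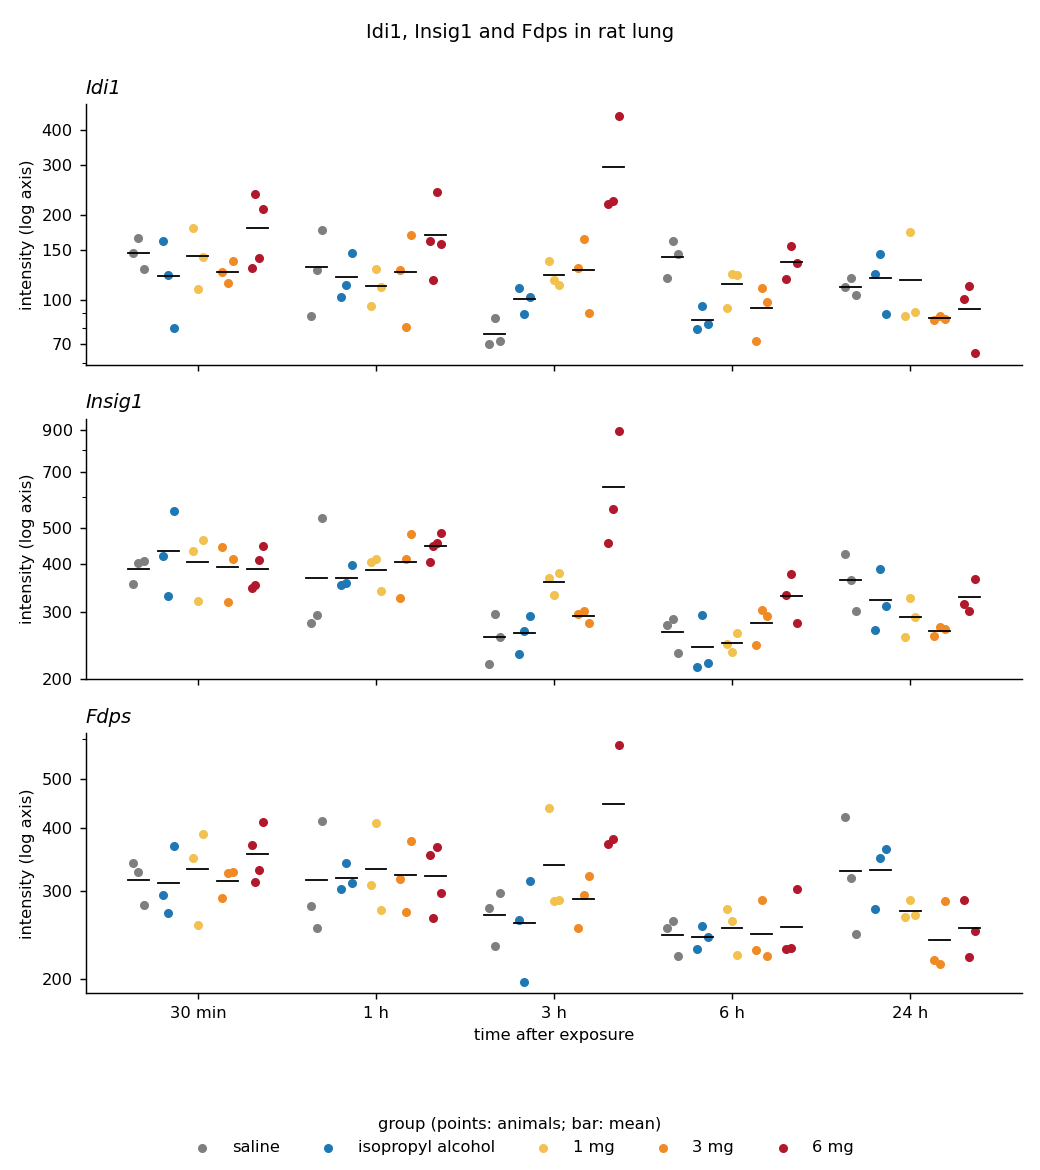
Intensity on a log axis of Idi1, Insig1 and Fdps in each of the 77 animals, by time and group, with a bar at the group mean. The 6 mg animals at 3 h hold the highest group mean of each gene, at 297 for Idi1, 637 for Insig1 and 445 for Fdps.

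The 4 measured members beyond these act later in the route to cholesterol. Fdft1 encodes squalene synthase, the step that commits farnesyl diphosphate to sterols. It stood at 102.2, 150.6 and 88.8 with 6 mg at 3 h against 95.2, 107.2 and 95.8 with isopropyl alcohol, which overlapped. Its log2 fold change was 0.16 (95% interval -0.16 to 0.48), and 0.08 in its second probe set. Without 6 mg animal 2 both turned below 0, to -0.04 and -0.05.

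Sqle encodes squalene epoxidase, a rate-controlling step after squalene. Its treated animals stood at 112.4, 150.4 and 86.8 against 66.4, 65.9 and 79.8, and all were higher. With a log2 fold change of 0.64 ± 0.36 (SE, limma adjusted p = 0.259), it had the widest 95% interval of the members (-0.08 to 1.36). Saline animals at 3 h were lower again, at 37.0, 31.0 and 38.2, below every animal given isopropyl alcohol (0.88 ± 0.36 for isopropyl alcohol over saline, limma adjusted p = 0.91, unadjusted p = 0.0179).

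Lss encodes lanosterol synthase, which closes the sterol rings. Its intensity was 116.4, 144.3 and 120.2 with 6 mg at 3 h against 83.3, 91.2 and 117.8, and the lowest treated animal lay just under the highest isopropyl alcohol animal. This gave a log2 fold change of 0.37 (95% interval 0.09 to 0.65, limma adjusted p = 0.0674).

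Dhcr7 encodes the reductase of the last step to cholesterol. It stood at 81.9, 80.6 and 77 with 6 mg at 3 h against 48.5, 58.1 and 69.6 with isopropyl alcohol, without overlap. Its log2 fold change was 0.41 (95% interval 0.10 to 0.73, limma adjusted p = 0.0737). Both genes passed with quantile normalization (Dhcr7 at 0.52, adjusted p = 0.0204, and Lss at 0.46, adjusted p = 0.019) and with array weights (both at 0.51, adjusted p = 0.048 and 0.0333). Without isopropyl alcohol animal 3 both Dhcr7 (0.53, adjusted p = 0.0365) and Lss (0.51, adjusted p = 0.0198) passed, and Lss also passed without 6 mg animal 1 (0.43, adjusted p = 0.0497).

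**Figure D2:**
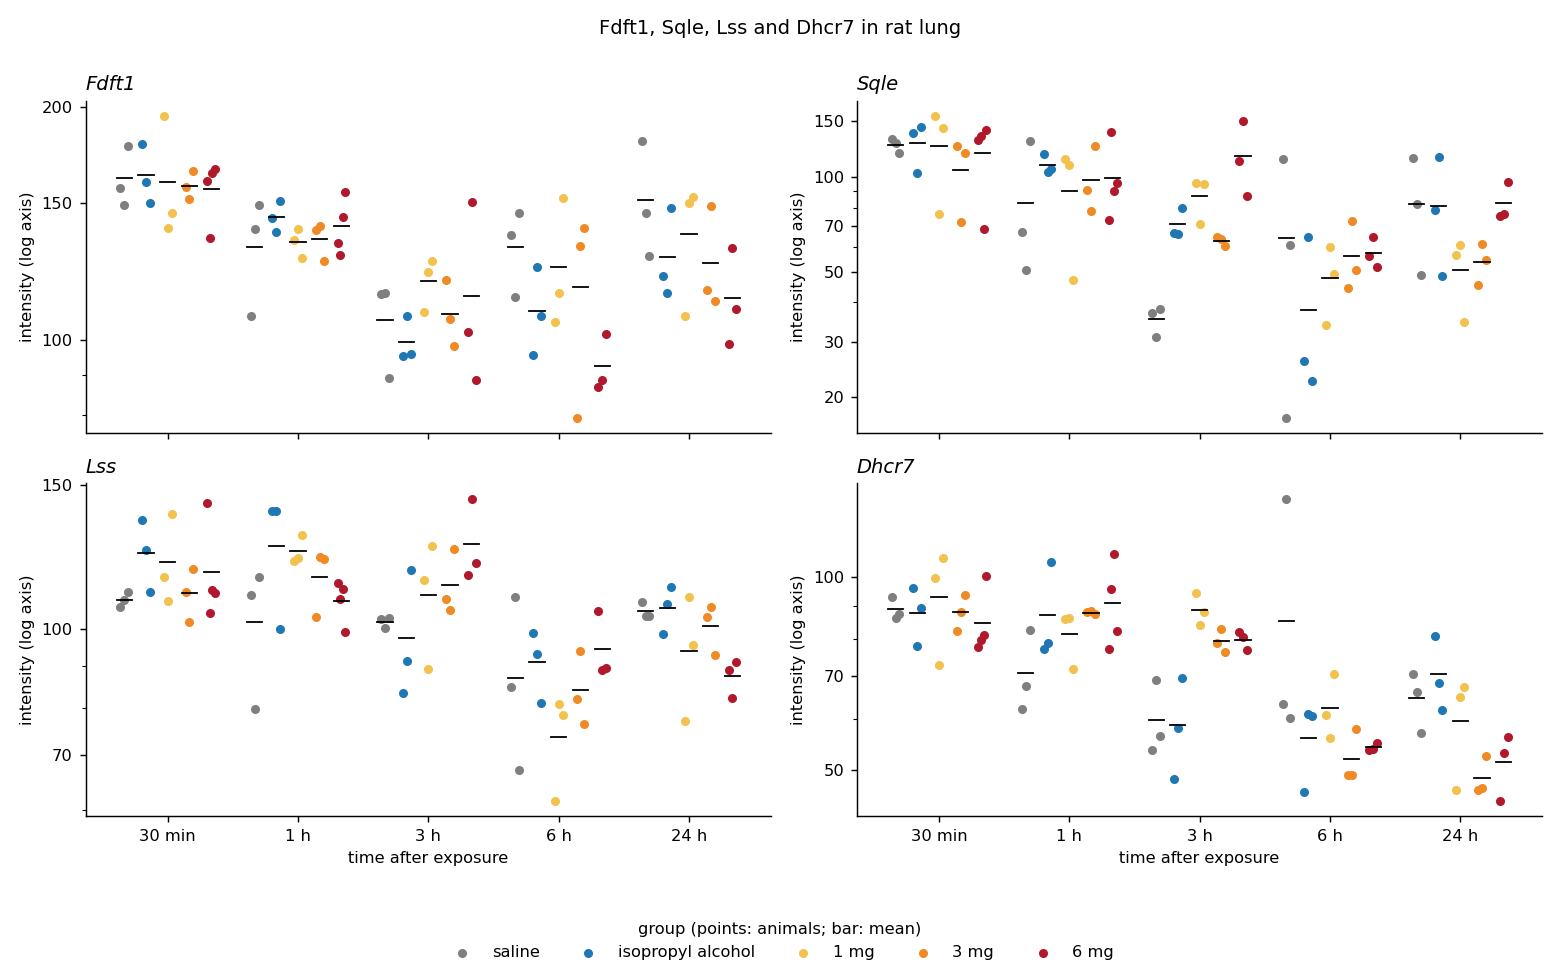
Intensity on a log axis of Fdft1, Sqle, Lss and Dhcr7 in each of the 77 animals, by time and group, with a bar at the group mean. At 3 h the 6 mg animals of Sqle and Dhcr7 lie above the isopropyl alcohol animals, and those of Fdft1 and Lss overlap with them.

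Dose was examined at 3 h, where all doses share the same isopropyl alcohol animals. At 1 mg and at 3 mg 0 of the 7 member genes passed (limma), with an unadjusted p under 0.05 for 2 and 1 of them. Of all tested probe sets 0.018% and 0% were called in these comparisons, and 978 and 508 of the 11106 had an unadjusted p under 0.05. All 7 genes were above 0 on the log2 scale with 1 mg (median 0.28) and 6 of 7 with 3 mg (median 0.18). The median over all tested probe sets was 0.0 in both. Idi1 stood at 137.2, 117.4 and 113.2 with 1 mg and at 129.5, 164.8 and 89.9 with 3 mg. Against isopropyl alcohol these gave log2 fold changes of 0.26 (95% interval -0.27 to 0.79) and 0.29 (-0.24 to 0.82). Insig1 at 1 mg (368.2, 332.4 and 380.0) lay above all isopropyl alcohol animals and above all 3 mg animals (295.5, 302.0 and 280.5), so its group means did not follow the order of the doses. Its log2 fold changes were 0.44 ± 0.19 (limma adjusted p = 0.483) and 0.15 ± 0.19 (limma adjusted p = 0.981).

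Dhcr7 was higher than with isopropyl alcohol in every animal of all 3 doses at 3 h. It stood at 94.3, 84.0 and 88.0 with 1 mg and 78.9, 82.8 and 76.4 with 3 mg, beside the 6 mg values of 77 to 81.9 given above. The log2 fold changes of 0.55, 0.40 and 0.41 at 1, 3 and 6 mg all missed the threshold (limma adjusted p = 0.222, 0.981 and 0.0737). They rest on the same 3 isopropyl alcohol animals, so they are not independent of each other. Sqle with 3 mg (64.4, 63.4 and 60.2) lay below isopropyl alcohol, and Fdps with 1 mg reached 436.8 in animal 1 but 286.5 and 287.6 in the others.

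The linear trend over 0, 1, 3 and 6 mg at 3 h passed for 3 of 7 member genes, where 3.23% of all tested probe sets rose with dose. Its slope was 0.22 log2 units per mg for Idi1 (adjusted p = 8.06e-05), 0.17 for Insig1 (adjusted p = 2.83e-05) and 0.10 for Fdps (limma adjusted p = 0.00934). Directly against 3 mg, 2 of 7 rose with 6 mg, Idi1 (1.13 ± 0.26, adjusted p = 0.00615) and Insig1 (1.05 ± 0.19, limma adjusted p = 0.000284), where 1.28% of all tested probe sets rose. Fdps stood at 0.58 (95% interval 0.21 to 0.95, adjusted p = 0.057). Idi1 lost the call against 3 mg without 6 mg animal 3 (0.80, adjusted p = 0.337) or 3 mg animal 3 (0.91, adjusted p = 0.0791), with array weights (0.94, adjusted p = 0.0965) and with the groups of that time alone (1.13, limma adjusted p = 0.0725), and Insig1 kept it with each animal left out in turn but missed it with the groups of that time alone (1.05, limma adjusted p = 0.0526). The Fdps slope lost its call without 6 mg animal 3 (0.07) or isopropyl alcohol animal 2 (0.08), with chip B alone (0.09, adjusted p = 0.0638), with array weights (0.08, adjusted p = 0.14) and with the groups of that time alone (0.10, limma adjusted p = 0.0838).

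**Figure D3:**
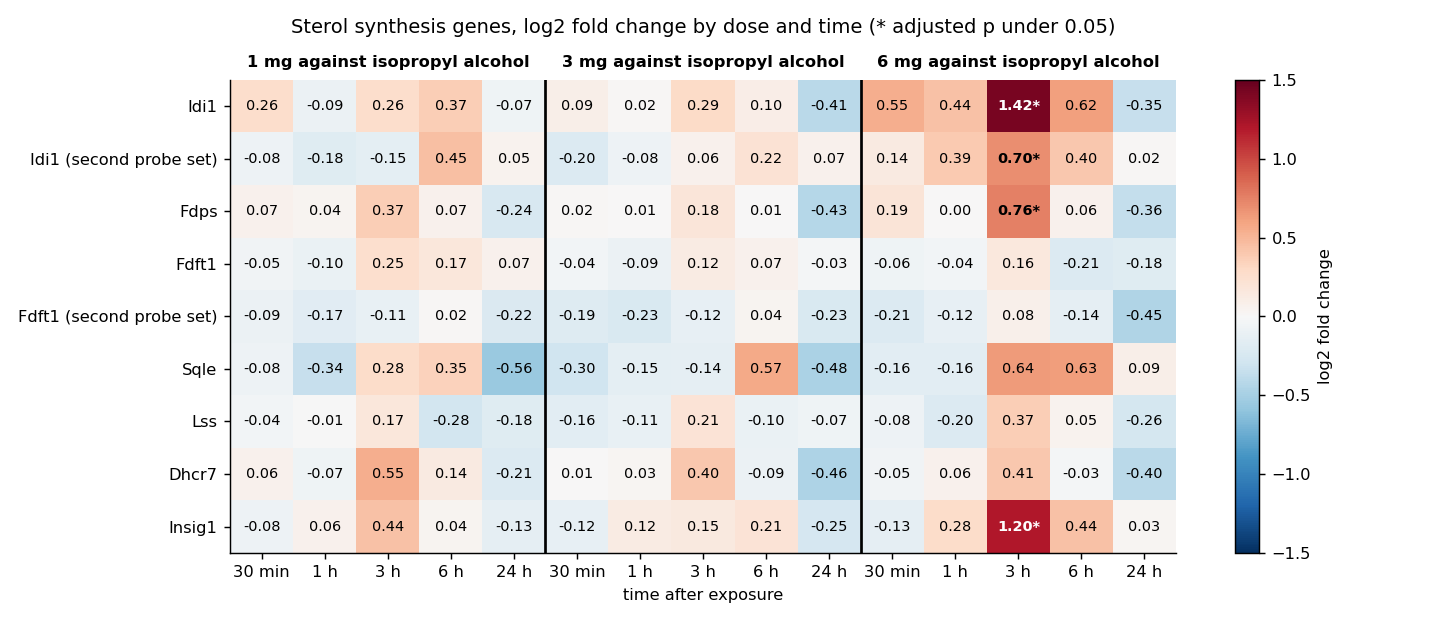
Log2 fold change of the 9 tested probe sets at 1, 3 and 6 mg against isopropyl alcohol, by time, with a colour scale from -1.5 to 1.5 and an asterisk at an adjusted p under 0.05. Asterisks stand only in the 6 mg column at 3 h, at both Idi1 probe sets (1.42 and 0.70), Fdps (0.76) and Insig1 (1.20).

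The size of the 6 mg effect depended on the time for 3 of 7 member genes. By an F-test over the 5 times these were Insig1 (F = 7.92, adjusted p = 0.00141), Idi1 (F = 5.70, adjusted p = 0.0108) and Fdps (F = 4.74, limma adjusted p = 0.0268), where 11.4% of all tested probe sets passed. The second Idi1 probe set did not (F = 1.45, limma adjusted p = 0.484). Idi1 stood at 0.55 and 0.44 on the log2 scale at 30 min and 1 h, at 1.42 at 3 h, and at 0.62 and -0.35 at 6 and 24 h. Insig1 ran from -0.13 and 0.28 through 1.20 to 0.44 and 0.03. Fdps was close to 0 at 1 h (0.00) and 6 h (0.06), and stood at 0.19 at 30 min and -0.36 at 24 h. For 3 mg and for 1 mg the same F-test passed for 0 of 7 (limma, unadjusted p under 0.05 for 1 gene each). Of all 11106 probe sets 0.36% and 0.099% passed, and 463 and 312 had an unadjusted p under 0.05. Without 6 mg animal 3 at 3 h, Insig1 alone passed the 6 mg F-test (F = 5.12, limma adjusted p = 0.0215). Fdps also missed it without isopropyl alcohol animal 2 at 3 h, isopropyl alcohol animal 2 or 3 at 24 h or 6 mg animal 2 at 24 h (F from 3.02 to 4.05 over these 5 refits), and with chip A alone, chip B alone, array weights or scan days as a block (F = 3.08, 4.28, 3.03 and 3.39).

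With 6 mg at 30 min, 1 h, 6 h and 24 h, 0 of 7 member genes passed (limma), with an unadjusted p under 0.05 for 1, 0, 2 and 1 of them. All tested probe sets were called at 0%, 0.189%, 18.2% and 6.73% in these comparisons. An unadjusted p under 0.05 was found for 583, 1492, 3392 and 1959 of all 11106 probe sets. At 6 h the count was 2 with array weights and with all arrays and the chip letter as a block, and 1 with chip A alone and with the groups of that time alone. Shares over all probe sets under those settings are not given here. Idi1 at 6 h was 118.4, 155.0 and 135.2 with 6 mg against 78.8, 95.1 and 82.4 with isopropyl alcohol, without overlap (0.62 ± 0.26, limma adjusted p = 0.0936). Saline animals at 6 h stood at 119.7, 162.0 and 145.0, so the 6 mg animals lay in or next to the saline range and the isopropyl alcohol animals below it (-0.68 ± 0.26 for isopropyl alcohol over saline, limma adjusted p = 0.287). Insig1 at 6 h was 332.6, 378.0 and 280.9 with 6 mg against 214.8, 294.0 and 220.2, so its groups overlapped (0.44 ± 0.19, limma adjusted p = 0.095).

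At 24 h after 6 mg 2 of the 7 member genes were above 0 on the log2 scale, with a median of -0.26 over the 7 against -0.01 over all tested probe sets. Dhcr7 was 44.8, 53.2 and 56.4 against 81.0, 68.4 and 62.0, without overlap (-0.40 ± 0.16, limma adjusted p = 0.134). With 3 mg at 24 h all 7 genes were below 0, with a median of -0.41 against 0.01 over all tested probe sets. In that comparison Dhcr7 stood at 46.6, 46.9 and 52.6 (-0.46, limma adjusted p = 0.361) and Fdps at 218.0, 214.7 and 286.5 (-0.43, limma adjusted p = 0.708). The difference of the 6 mg effect between 24 and 6 h passed for 0 of 7 (limma, unadjusted p under 0.05 for 1, Idi1 at -0.97, adjusted p = 0.155). Of all 11106 probe sets 3.35% passed, and 1623 had an unadjusted p under 0.05.

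For 3 mg against isopropyl alcohol at 30 min, 1, 6 and 24 h, 0 of 7 member genes passed at each time, where 0%, 0%, 1.68% and 0.504% of all probe sets were called. For 1 mg at those times it was likewise 0 of 7, where 0%, 0%, 0.009% and 0.333% were called. Over these 8 comparisons an unadjusted p under 0.05 was reached by 2 genes with 3 mg at 24 h, 1 gene with 1 mg at 6 h and none in the rest (limma). Of all 11106 probe sets 619 reached it with 3 mg at 24 h and 457 with 1 mg at 6 h. The linear trend at 30 min, 1, 6 and 24 h passed for 0 of 7 as well, where 0%, 0.477%, 20.4% and 8.11% of all probe sets passed. An unadjusted p under 0.05 was reached by 1 gene at each of these times, and by 664, 1622, 3498 and 2087 of all probe sets. Isopropyl alcohol against saline at 30 min, 1, 3, 6 and 24 h passed for 0 of 7 at each time, where 0.027%, 0%, 0.009%, 0.018% and 0% were called. The unadjusted p was under 0.05 for 0, 1, 1, 2 and 0 genes, and for 226, 189, 591, 1273 and 317 of all probe sets.

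Ranges of several members in the control animals differed between the times, though 1 of 7 members passed the test within saline and 0 of 7 within isopropyl alcohol (limma). All controls of 30 min were scanned on days that no control of another time shared, so for them time and scan day cannot be told apart. Their log2 ratio of 3′ to 5′ GAPDH control probe sets, a sign of RNA quality, was also lower, with group means of 0.18 and 0.28 against 0.72 and 1.14 at 3 h, and its part in these levels was not tested. Over the 6 saline and isopropyl alcohol animals of each time, Insig1 ran from 329.8 to 551.3 at 30 min (median 407.0), from 219.0 to 297.0 at 3 h (median 262.8) and from 269.2 to 426.9 at 24 h (median 337.9). At 3 h and at 6 h every control animal was thus below every control animal of 30 min. The same held at 3 h for Sqle (31.0 to 79.8, against 103.1 to 144.3 at 30 min), Dhcr7 (48.5 to 69.6, against 78.0 to 96.0) and Fdft1 (89.2 to 114.8, against 149.4 to 179.0). Idi1, Fdps and Lss overlapped between 3 h and 30 min. The share of all probe sets that separate in this way is not given here, so the separation is not a result about the members. Medians of Lss ran from 88.9 at 6 h to 112.8 at 1 h.

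Within saline alone, the 5 times differed for 1 of 7 member genes, Sqle (F = 6.03, limma adjusted p = 0.0325), where 2.2% of all probe sets passed, and also in the second Idi1 probe set (F = 5.68, adjusted p = 0.037). Within isopropyl alcohol alone 0 of 7 passed, where 0.162% did. An unadjusted p under 0.05 was reached by 5 of 7 and by 1310 of all 11106 probe sets (limma). The second Fdft1 probe set passed there (F = 7.75, limma adjusted p = 0.0375), and Sqle missed (F = 6.70, adjusted p = 0.0619). The Sqle call in saline was lost when any of 5 single animals was left out (F from 4.64 to 5.18), and with scan days as a block no member gene passed. The call of the second Idi1 probe set in saline was lost without any of 8 single animals (F from 4.02 to 5.81), and that of the second Fdft1 probe set in isopropyl alcohol likewise (F from 5.99 to 7.59). The 3 h controls were thus among the low control groups for several members. The intensities of Sqle, Dhcr7 and Fdft1 with 6 mg at 3 h (86.8 to 150.4, 77 to 81.9 and 88.8 to 150.6) lay within the range of all 30 control animals, apart from 1 Sqle animal above it and 1 Fdft1 animal below it.

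Ranked over the 25 group means, 6 mg at 3 h was highest for Idi1, Insig1, Fdps and Lss (mean 127), while Fdft1 and Sqle were highest with isopropyl alcohol at 30 min (163 and 128) and Dhcr7 with 1 mg at 30 min (93.1). Neighbours in this order overlapped in all 24 pairs for each of the 7 genes. The lowest groups were saline at 3 h for Idi1 and Sqle (76.1 and 35.4), isopropyl alcohol at 6 h for Insig1 (243) and 3 mg at 24 h for Dhcr7 (48.7).

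Over the 25 group means on the log2 scale, the 21 pairs of the 7 genes had Pearson correlations from 0.26 (Idi1 with Fdft1) to 0.89 (Fdps with Insig1), with a median of 0.70. After the group means were subtracted, the 77 animals gave a median of 0.24, from -0.05 (Fdps with Fdft1) to 0.51 (Fdps with Insig1), and 19 of 21 pairs were above 0. These points share arrays, scan days and the scaling of each array, and the values are given as a description. Chips A and B of an animal differed by a median of 0.08 on the log2 scale for Insig1 and 0.29 for Sqle, with the 5 other genes from 0.13 to 0.16.

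Of 8035 tested genes that were not members, Msmo1, the sterol C4-methyl oxidase of cholesterol synthesis, was most like the mean of the 7 members, both over the 25 group means (Pearson 0.85, Spearman 0.88) and over the 77 animals less their group means (0.59 and 0.58). Over the group means it was followed by Neurl3, Scd2, Mrps16, Spon2 and Ramp1 (Pearson from 0.81 to 0.78). Over the animals it was followed by Cyp51 (0.50), Alad (0.50), Trib3 (0.49), Tmem205 (0.47) and Acat2 (0.46). The median over all genes compared was 0.00 in both. Msmo1 itself was not called with 6 mg at 3 h (0.21 ± 0.15, limma adjusted p = 0.395).

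Of 15 other enzymes of cholesterol synthesis, 12 had a probe set and 9 were tested. At 3 h after 6 mg 1 of these 9 rose, Cyp51, the lanosterol demethylase that follows Lss, and none fell. The median was 0.26, against -0.05 over all tested probe sets. Its intensity was 310.6, 237.8 and 360.0 against 102.8, 139.8 and 170.2, without overlap (2.15-fold, 1.10 ± 0.23, limma adjusted p = 0.000605). Its second probe set rose 1.54-fold (0.62 ± 0.19, adjusted p = 0.0207), a call that was lost without 6 mg animal 3 (0.55, adjusted p = 0.188) and without isopropyl alcohol animal 1 or 2 (0.60 and 0.62). Pmvk, Nsdhl, Mvk, Acat2, Ebp, Sc5d and Msmo1 stood between 0.21 and 0.40 and Lbr, a sterol reductase of the nuclear envelope, at -0.50, none of them called.

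At 6 h 2 of these 9 rose, where 7.17% of all tested probe sets rose and 11.1% fell. Cyp51 was 281.4, 316.0 and 274.0 against 124.8, 153.3 and 139.6 (2.04-fold, 1.03 ± 0.23, limma adjusted p = 0.000832), and its second probe set rose as well (0.94 ± 0.19, adjusted p = 0.000167). Sc5d, the desaturase acting shortly before Dhcr7, rose 1.46-fold (0.55 ± 0.15, limma adjusted p = 0.00556), but without isopropyl alcohol animal 3 it stood at 0.45 (adjusted p = 0.0518). The second Sc5d probe set was at -0.20 (limma adjusted p = 0.617). The median at 6 h was -0.05. The log2 ratio of 3′ to 5′ beta-actin control probe sets at 6 h was 1.64 ± 0.27 (SD, n = 3, 1.33 to 1.80) with 6 mg and 0.73 ± 0.30 (SD, n = 3, 0.43 to 1.04) with isopropyl alcohol, without overlap, and the GAPDH ratio 0.94 ± 0.24 and 0.62 ± 0.53. The part of RNA quality in these and the further calls at 6 h was not tested. No 6 mg animal of 6 h shared a scan day with an isopropyl alcohol animal of 6 h, so dose and scan day cannot be told apart between them. The brighter Cyp51 probe set thus stood at 2.15-fold and 2.04-fold and the second at 1.54-fold and 1.92-fold at 3 and 6 h, while Idi1 went from 2.67-fold to 1.54-fold and Fdps from 1.69-fold to 1.04-fold.

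**Figure D4:**
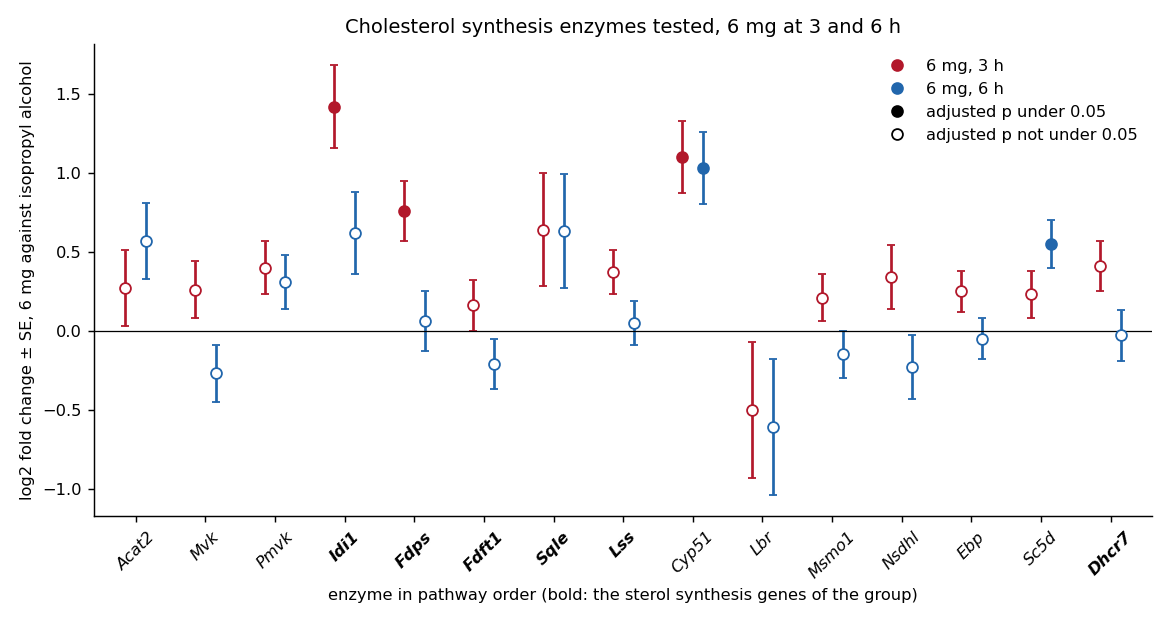
Log2 fold change with SE of 15 tested enzymes of cholesterol synthesis in pathway order, for 6 mg against isopropyl alcohol at 3 h (red) and 6 h (blue), with filled points at an adjusted p under 0.05. Idi1, Fdps and Cyp51 are filled at 3 h, and Cyp51 and Sc5d at 6 h.

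Counts of further gene lists are over the brightest probe set of each gene, and with 6 mg 3.84% of all tested probe sets rose and 9.1% fell at 3 h, and 7.17% rose and 11.1% fell at 6 h. A count near these shares is not a result about its list. With 6 mg an unadjusted p under 0.05 was reached by 2844 of all 11106 probe sets at 3 h and 3392 at 6 h (limma). Of 7 tested genes of SREBP and sterol regulation 1 rose with 6 mg at 3 h. This was Mylip, a ubiquitin ligase of sterol homeostasis (0.52 ± 0.14, limma adjusted p = 0.0072), and the call was lost without 6 mg animal 3 (0.52, adjusted p = 0.0594). Srebf1, Srebf2, Scap, Insig2, Mbtps1 and Mbtps2 were not called. Srebf2, the gene of SREBP2, stood at -0.06 ± 0.23, Scap at -0.21 and Insig2 at -0.18, and the median was -0.16. At 6 h 0 of the 7 passed (limma, unadjusted p under 0.05 for 2), where 18.2% of all probe sets were called, with Mbtps1, which encodes the first of the proteases, nearest to the threshold (-0.33 ± 0.12, adjusted p = 0.0536).

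Of the neighbouring pathways at 3 h, 0 of 6 genes of cholesterol uptake and transport passed (limma, unadjusted p under 0.05 for 0), with Npc2 and Soat1 at 0.31 and -0.41 nearest to the threshold. For fatty acid synthesis 1 of 10 fell, close to the 9.1% of all probe sets that did, Acaca, the acetyl-CoA carboxylase (-0.40 ± 0.12, adjusted p = 0.0137), which stood at -0.26 without 6 mg animal 3 (limma adjusted p = 0.348), and its second probe set was at -0.17 (adjusted p = 0.754). Of 5 liver X receptor targets and efflux genes 1 rose, Apoe, which carries lipids in lipoproteins (0.53 ± 0.18, limma adjusted p = 0.0387), a call lost when any of 4 single animals was left out (0.43 to 0.51). In the isoprenoid side branch 1 of 5 fell, Pdss2, which builds the coenzyme Q tail (-0.73 ± 0.25, limma adjusted p = 0.0413), also lost when any of 4 single animals was left out (-0.80 to -0.26). The medians of these lists were 0.01, -0.09, 0.16 and -0.21.

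At 6 h Acaca was lower by more, at -0.85 ± 0.12 (limma adjusted p = 1.04e-07), the 1 gene of 10 called in fatty acid synthesis, with its second probe set at -0.38 (adjusted p = 0.391). Scarb1, the receptor for HDL cholesterol, was the 1 of 6 genes of uptake and transport that fell (-0.85 ± 0.22, limma adjusted p = 0.0033), without 6 mg animal 2 at -0.58 (adjusted p = 0.0932) and with scan days as a block at -0.47 (adjusted p = 0.18). It fell again at 24 h (-0.99 ± 0.22, limma adjusted p = 0.00139), and its second probe set fell at both times (-1.11 and -1.46, adjusted p = 0.0177 and 0.00347). In the same list a dimmer probe set of Vldlr also fell at 6 h (-0.65 ± 0.21, limma adjusted p = 0.0209). The brightest Vldlr probe set stood at -0.26 (adjusted p = 0.436) and the remaining one at -0.19 (adjusted p = 0.462). Abcg1, a sterol exporter, fell at 6 h (-0.41 ± 0.15, adjusted p = 0.0491), 1 of 5 in its list and a call lost when any of 5 single animals was left out (-0.42 to -0.31). Its other probe sets stood at -0.30 and -0.43 and were not called (limma adjusted p = 0.191 and 0.368). In the isoprenoid side branch at 6 h Fnta, a subunit of protein farnesyltransferase, rose (0.36 ± 0.09, limma adjusted p = 0.00463), which with scan days as a block was 0.20 (adjusted p = 0.191), and Pdss2 fell (-0.77 ± 0.25, adjusted p = 0.0222), the latter lost when any of 4 single animals was left out. The medians were -0.01, 0.01, -0.41 and -0.29 for fatty acid synthesis, uptake and transport, liver X receptor targets and the side branch.

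Of 8 tested markers of alveolar type II cells 2 fell with 6 mg at 3 h, where 9.1% of all probe sets fell. These were Slc34a2, a phosphate carrier (-0.51 ± 0.17, limma adjusted p = 0.0387), and Lpcat1, which makes surfactant lipids (-0.85 ± 0.18, adjusted p = 0.000785). The list's median was 0.22. At that time the list's summed intensity was 18875 to 31716 with 6 mg and 20491 to 21618 with isopropyl alcohol. No marker of the type I, club, endothelial, macrophage, fat, heart muscle or liver lists passed at 3 h among 5, 3, 4, 2, 4, 7 and 3 tested genes (limma, brightest probe sets), with an unadjusted p under 0.05 for 1 type I and 2 fat markers. The second probe set of Pln, a heart muscle marker, did pass (0.91 ± 0.28, 1.88-fold, limma adjusted p = 0.0221), with the brighter one at 0.16. At 6 h 1 of 5 type I and 2 of 4 endothelial markers fell and 1 of 2 macrophage markers rose (limma), beside the 11.1% and 7.17% of all probe sets that fell and rose. No marker with a probe set was listed at 0. The 7 heart muscle markers summed at 3 h to 966 to 1968 with 6 mg and 1164 to 1246 with isopropyl alcohol. At 3 h the log2 ratio of 3′ to 5′ GAPDH control probe sets was 1.04 ± 0.17 (SD, n = 3) with 6 mg and 0.72 ± 0.22 (SD, n = 3) with isopropyl alcohol, and that of beta-actin 1.01 ± 0.31 and 0.85 ± 0.09. The part of these measures in the results was not tested.

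The arrays had 17 scan days, and 6 mg and isopropyl alcohol animals of 3 h occurred together on 2 pairs of them. On the pair with 2 animals of 6 mg and 1 of isopropyl alcohol, the log2 difference was 1.55 for Idi1, 1.11 for Insig1, 0.55 for Fdps and 0.94 for Cyp51. On the pair with 1 animal each it was 0.98, 1.25, 0.52 and 1.16. The second Idi1 probe set stood at 1.45 on the pair with 2 animals of 6 mg and at 0.1 on the pair with 1 animal each. With scan days as a block the log2 fold changes were 1.34, 1.10 and 0.64 for Idi1, Insig1 and Fdps (limma adjusted p = 0.000262, 4.61e-05 and 0.0089). At 1 h and at 6 h no 6 mg animal shared a scan day with an isopropyl alcohol animal of that time. All 6 mg animals of 6 h were scanned on days 9 and 10. Between these groups dose and scan day thus cannot be told apart.

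**Figure D5:**
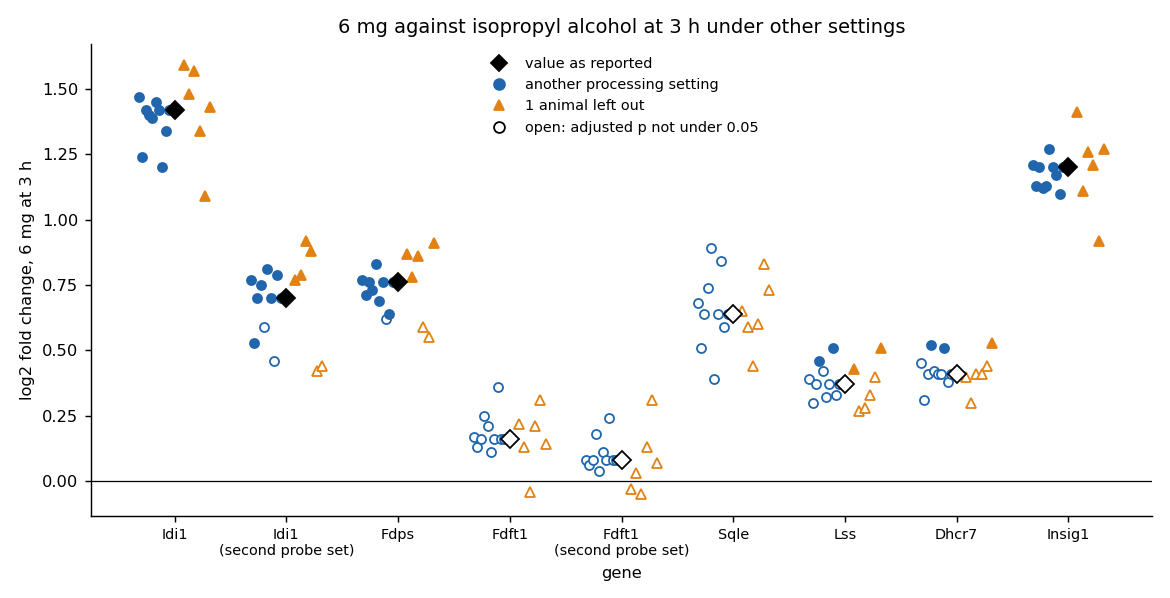
Log2 fold change of the 9 tested probe sets for 6 mg at 3 h as reported (diamonds), under other processing settings (circles) and with 1 animal left out (triangles), with open symbols where the adjusted p was not under 0.05. All symbols of Idi1 (first probe set, 1.09 to 1.59) and Insig1 (0.92 to 1.41) are filled.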

How the data were processed

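The deposited table held linear intensity values, 1 per probe set and array, for 15923 probe sets including 57 control probe sets, on Affymetrix RAE230A arrays per the file headers. Which program summarised the probes is not given in the sources used here. A 2% trimmed mean of 150 was found on every array, so the deposited values had been scaled, and that scaling was kept. Scan days came from the array files.

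An offset of 7 (the 10th percentile of the values, rounded) was added before log2, which understates differences of dim probe sets. Chips A and B with the same title number were taken as 1 animal and averaged. The labels do not describe the animals further, so p-values measure the spread between these samples. Control probe sets and the lowest 30% by mean were left out. One limma model (version 3.58.1, with statmod 1.5.0 and R 4.3.3) held all 25 group means, with two-sided tests and Benjamini-Hochberg adjustment over all 11106 probe sets per comparison at 0.05. The method was tested on simulated data. The array's gene table gave 1 gene for 12783 probe sets, several for 312 and none for 2771, and the symbols of 12748 were matched to RefSeq (GRCr8). Sequences are from RefSeq.

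All member probe sets are named; from each further list at most 4 genes that passed are named, the lowest adjusted p first, and at most 2 if none did, with others chosen after their values were seen. The members and lists were chosen with earlier results of these data known. Alternatives were other offsets, no filter, quantile normalization, each chip alone, all arrays with the chip letter as a block, array weights, scan days as a block, the groups of a time alone, the other probe set and each animal left out. Title numbers name single animals and are not shared between groups, so no animals are paired.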

Additional observations from a re-analysis of the deposited data

Results flagged for a closer look

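The effect of 6 mg differed between the 5 times for Insig1 (adjusted p = 0.00141), Idi1 (adjusted p = 0.0108) and Fdps (adjusted p = 0.0268), by limma's F-test over the 5 contrasts against isopropyl alcohol. All 3 were highest at 3 h.

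In the 6 mg group at 30 min, with 4 animals, 3 members had 1 animal far from the others, judged by its gap to the nearest animal over the range of the group on the log2 scale. For Sqle animal 3 was low (68.3, the others 131.3 to 140.5, gap over range 0.891). For Fdft1 animal 2 was low (135.2, the others 160.4 to 166.2, gap over range 0.869). For Dhcr7 animal 4 was high (100.2, the others 77.8 to 81.1, gap over range 0.833). These were 3 of 18 combinations of a probe set and a group of 4 animals, and chance flags about 1 in 20. The combinations come from the same 2 groups of animals, so they are not independent of each other. No member passed the test at 30 min.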

How the results depend on the processing

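Of 32 counts of member genes past the test, 14 moved by over 1.5 times in at least 1 of 638 refits, and 594 of the refits did not move a count so far. The count of 3 with 6 mg at 3 h was 5 with quantile normalization and 2 to 5 with 1 animal left out. Shares of all probe sets called under the other settings are not given here, so a higher count there is not a result about the members. With array weights, which weigh animals by their spread, counts became 1 for 1 mg at 3 h, 2 for 6 mg at 6 h, 1 each for 3 mg and 6 mg at 24 h, 1 for isopropyl alcohol against saline at 6 h, 2 and 1 for the trend at 6 and 24 h, 1 for 6 against 3 mg at 3 h, 1 for the 6 mg effect between 24 and 6 h, 1 for the 3 mg effect between times, and 5 each for isopropyl alcohol and saline between times. With all arrays and the chip letter as replicate block, counts became 2 for 6 mg at 6 h, 1 for the trend at 6 h, 1 for the 6 mg effect between 24 and 6 h, 4 for isopropyl alcohol between times and 3 for saline between times; the labels pair no animals, and Idi1, Insig1 and Fdps at 3 h stood at 1.42, 1.20 and 0.76 in that block fit. With chip A alone counts were 1 for 6 mg and 1 for the trend at 6 h and 0 for saline between times. With the groups of a time alone they were 1 for 6 mg at 6 h and 0 for 6 against 3 mg at 3 h. Quantile normalization gave 1 for isopropyl alcohol between times, and scan days as a block gave 0 for saline between times. With 1 animal left out the counts ranged from 2 to 4 for the trend at 3 h, 1 to 3 for 6 against 3 mg, 1 to 4 for the 6 mg effect between times, 0 to 1 for isopropyl alcohol against saline at 6 h, 0 to 1 for the trend at 6 h, 0 to 2 for isopropyl alcohol between times and 0 to 2 for saline between times. Signs turned for values near 0. With 1 animal left out, Fdft1 at 3 h ran from -0.04 to 0.31 with 6 mg, from -0.02 to 0.04 in the trend and from -0.17 to 0.19 for 6 against 3 mg, below 0 without 6 mg animal 2 and, for 6 against 3 mg, 3 mg animal 3. The second Fdft1 probe set ran from -0.05 to 0.31 with 6 mg (-0.03 without animal 1), and its slope from 0.00 to 0.06. Dhcr7 for 6 against 3 mg ran from -0.01 to 0.04, with 0.00 without 6 mg animal 1, and was -0.02 with the scan-day block and -0.07 on the B chips. The cause of these shifts was not tested. The number of animals, mostly 3 a group, limits the precision of every value.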
